A study of Mus musculus with 4 samples.

Results

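The 2 arrays whose labels end in the number 2, 1 with vehicle and 1 with retinoic acid, were compared with the 2 arrays whose labels end in the number 1, which together are all 4 arrays of the series. All 4 samples were gonocytes, the germ cells of the newborn testis, sorted from mouse testes at 2 days post partum with magnetic beads against the surface protein THY1 and cultured for 8 h without serum, growth factors or feeder cells. The medium held ethanol as the vehicle on the arrays called vehicle 1 and vehicle 2 here, and retinoic acid (RA) at 100 nM, a derivative of vitamin A that pushes germ cells towards differentiation and meiosis, on those called RA 1 and RA 2. Treatment is therefore balanced across the comparison. The labels do not say what the number stands for, nor whether separate animals or separate cultures were used. Every p-value therefore measures spread among these 4 samples alone, and that spread may be technical. The main fit has no term for treatment, so its spread also holds the difference between vehicle and RA. A gene that responds strongly to RA thus has a larger error and can hardly pass. The arrays were grouped by their labels alone, but the comparison was chosen with earlier results of these data known.

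The newborn testis holds germ cells inside cords that are lined by Sertoli cells and wrapped by peritubular myoid cells. Between the cords lie steroid-producing Leydig cells, fibroblasts, vessels and immune cells. THY1 is used to enrich male germline stem cells and their precursors, but it is also known on fibroblasts, T cells and other somatic cells, so a sorted fraction can carry cells of several types. Genes restricted to 1 cell type serve as readouts of such a mixture. In RNA from a mixture, fewer cells of a type and less RNA per cell cannot be told apart.

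Germ cell genes were mostly lower on the arrays numbered 2, and genes of mast cells, of macrophages and other leukocytes, and less so of Sertoli and stromal cells were higher, with list medians of the same sign within vehicle and within RA. Leydig cell genes had a median of 0.58 within vehicle and 0.15 within RA, a difference that was not tested. The median germ cell identity gene was at a log2 difference of -0.46, the median mast cell marker at 1.25 and the median leukocyte marker at 0.91, where the median of all genes was -0.06. Signals below are on the linear scale of the arrays. In each pair the vehicle array comes first and the RA array second, a difference is the mean of log2(signal + 5) on the arrays numbered 2 minus that on the arrays numbered 1, and its SE rests on n = 2 arrays per number. This scale understates the fold of dim genes.

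Above the filter on dim signals were 13011 genes. With a threshold of 0.05 on the adjusted p, limma called 57 higher on the arrays numbered 2 (0.438%) and 38 lower (0.292%). All 95 had the same direction within vehicle and within RA. The fit without a treatment term leaves genes of opposite signs little room to pass, so this agreement is no separate support. No gene passed without the filter, where 7116 probe sets had an unadjusted p under 0.05; 1 higher and 1 lower passed against a minimum fold of 1.5, and 9 and 16 passed without the intensity trend of the variance. Equal array medians in place of the deposited scaling turned this split to 104 higher and 134 lower. With a term for treatment, which leaves 1 residual degree of freedom, the counts were 601 and 882 and included all 95. At least 2-fold in the same direction within both treatments were 102 genes higher (0.784%) and 76 lower (0.584%). At any size of difference, these included, 3619 genes (27.8%) were higher in both treatments and 5046 (38.8%) were lower in both. The other 4346 (33.4%) had opposite signs. Both arrays of a number lay beyond both of the other for 2787 genes (21.4%) on the higher side and for 3964 (30.5%) on the lower side; these are called separated below. Across the 13011 genes the difference within vehicle and the difference within RA, which share no array, had a Pearson correlation of 0.555, given as a description since genes are not independent replicates.

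**Figure D1:**
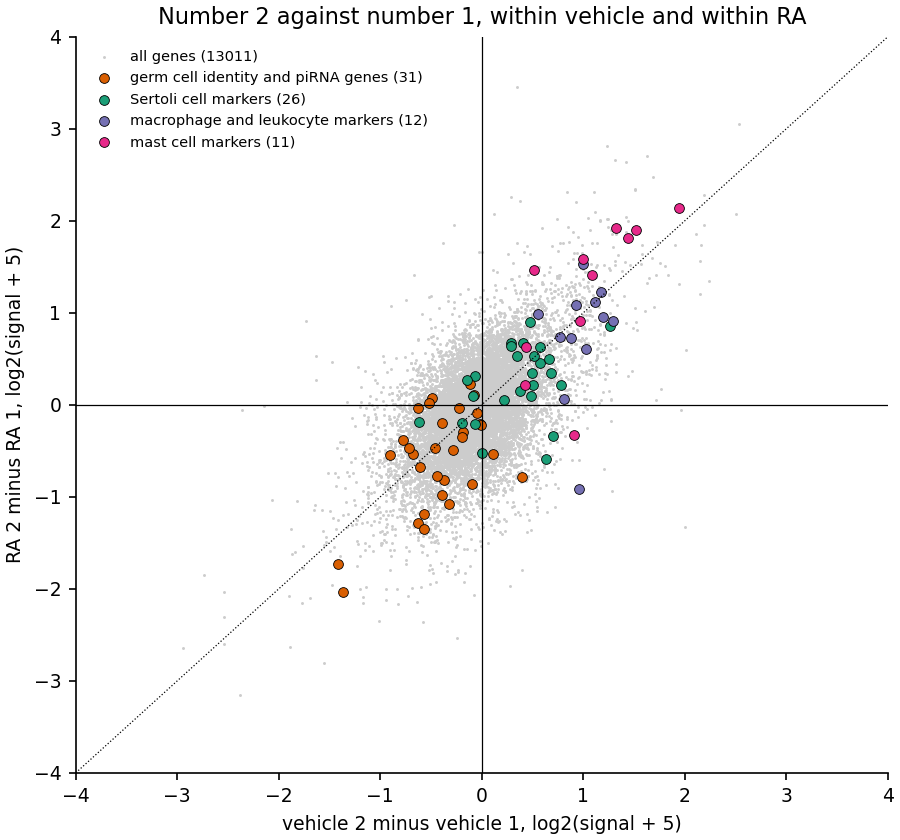
Each point is 1 gene, with the log2 difference of vehicle 2 minus vehicle 1 on the horizontal axis and of RA 2 minus RA 1 on the vertical axis; the dotted line marks equal differences. The 31 germ cell identity genes lie mostly to the lower left, with 25 below 0 in both treatments, against 38.8% of all genes. Above 0 in both lie 10 of 11 mast cell markers and 11 of 12 macrophage and leukocyte markers, against 27.8% of all genes.

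The arrays also differed by number in their control probe sets and in how signals were spread. Trimmed means, without the top and bottom 2% of signals, were 125 on all arrays, and the medians were 27.5 and 26.6 for number 1 and 29.5 and 26.9 for number 2. The 18 probe sets for bacterial and phage control transcripts, which the standard protocol adds to each hybridisation in fixed amounts, were brighter on number 2, by a median of 1.46 times within vehicle (range 1.38 to 1.61) and 1.99 times within RA (1.75 to 2.18); unequal amounts added and the scaling of the arrays cannot be told apart here. When the genes were split into 10 equal groups by brightness, the brightest group was shifted upward on number 2, with a median difference of 0.20, whereas the medians of the other groups lay between -0.14 and -0.02. The ratio of 3' to 5' signal overlapped between the numbers for Actb (1.72 and 2.08 on number 1, 1.73 and 2.32 on number 2) and for Gapdh (1.56 and 1.85, then 1.47 and 2.00). It overlapped for Pcx too (31.9 and 13.4, then 9.12 and 18.6) but not for Tfrc, which was lower on number 2 (11.5 and 14.7, then 9.57 and 9.59). The part of these differences in the results was not tested. The value after cyclic loess, which evens out shifts that depend on brightness, is given for the lists below.

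**Figure D2:**
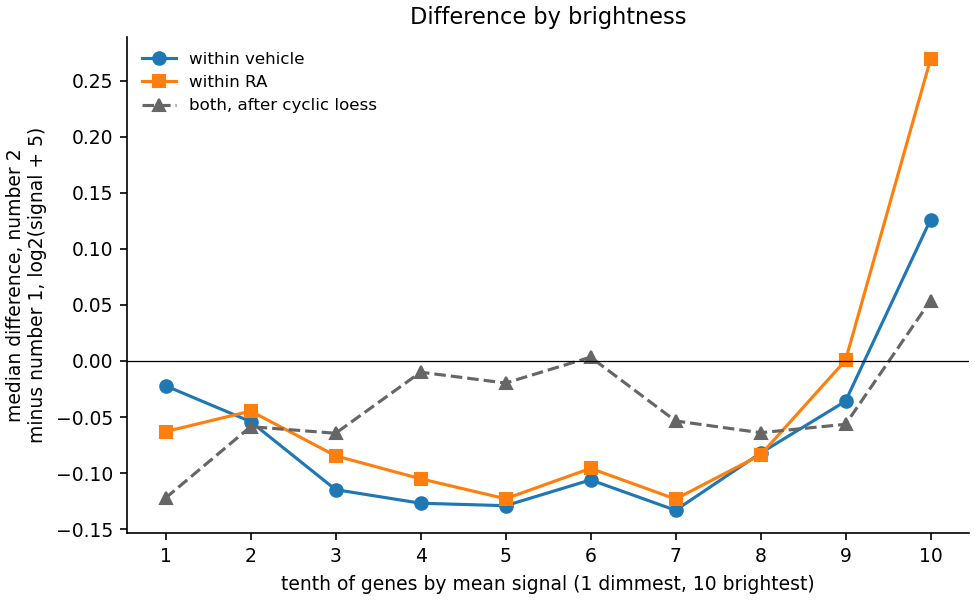
Genes were split into 10 equal groups by mean signal, from dimmest to brightest, and the median log2 difference of number 2 minus number 1 in each group is plotted for vehicle, for RA, and for both after cyclic loess. Only the brightest group stands well above 0, at 0.13 within vehicle and 0.27 within RA, and it is at 0.05 after cyclic loess.

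The germ cell list of 35 genes, of which 31 had a probe set of their own and all 31 were above the filter, was lower on number 2. Of these 31 genes, 29 had a negative difference and 25 were lower in both treatments, against 38.8% of all genes. Separated on the lower side were 23 (74.2%, against 30.5% of all genes), and none was separated on the higher side. The median was -0.46 (-0.39 within vehicle, -0.50 within RA) and stayed at -0.46 after cyclic loess. The summed signal of the list was 17640 and 17550 on number 1 and 14710 and 13490 on number 2, with no overlap. Brdt and Dppa3 passed the test, where 0.292% of all genes were called lower. With the treatment term 12 of the 31 did, against 6.78% of all genes.

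Brdt, a chromatin reader that acts in later male germ cells, had signals of 227 and 290 on number 1 and of 82.1 and 83.9 on number 2. It was 2.98-fold lower (-1.57 ± 0.21, adjusted p = 0.0137), but of its 2 other probe sets 1 was at -1.15 and the other at 0.02. Here and below, other probe sets of a gene are those above the filter, and dimmer ones are left out. Dppa3, which protects the maternal genome from demethylation in the early embryo and is also made by primordial germ cells, was dim at 40.3 and 48.3 against 12.6 and 7.96, below the filter level of 15.5 on number 2, with a difference of -1.70 ± 0.28 (adjusted p = 0.0343). The germ cell markers in widest use moved far less. Ddx4, an RNA helicase of germ cells, had 1310 and 1300 on number 1 and 1290 and 1120 on number 2 (-0.12 ± 0.15, adjusted p = 0.727), and Dazl, an RNA-binding protein of germ cells, had 1610 and 1510 against 1600 and 1300 (-0.11 ± 0.16, adjusted p = 0.746). Their vehicle arrays were nearly equal, and the lower values came from RA 2. Without RA 2 the difference of Dazl was 0.04. The other probe set of Dazl was at -0.34.

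Other members of the list, chosen after their values were seen, did not pass the test. The meiotic chromosome proteins Sycp3 (794 and 999 on number 1, 533 and 436 on number 2, a difference of -0.88) and Hormad1 (369 and 519 against 237 and 210, -0.96) were separated. So were genes of the piRNA pathway, which silences transposons in germ cells. Mael had 1650 and 1620 on number 1 and 1350 and 1150 on number 2, and Tdrd9 had 547 and 589 against 291 and 402. Piwil2, a PIWI protein of the same pathway, did not follow, with 1930 and 1790 against 1830 and 1940 (0.01), nor did Mov10l1, its helicase partner, with 808 and 680 against 748 and 793 (0.06).

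Genes of pluripotency and primordial germ cells had a median of -0.40. Of the 17 above the filter, 12 (70.6%, against 30.5% of all genes) were separated lower and 2 (11.8%, against 21.4%) higher. None passed the test. With the treatment term 4 were lower (23.5%, against 6.78% of all genes) and none higher. The summed signal of the list overlapped, at 5952 and 5493 on number 1 and 5542 and 5181 on number 2. Zfp42, a zinc finger protein of pluripotent cells, had 103 and 128 on number 1 and 63 and 45.3 on number 2 (-1.03 ± 0.24, adjusted p = 0.0877). Tfap2c, a transcription factor needed for primordial germ cells, had 425 and 428 against 303 and 216 (-0.73 ± 0.20, adjusted p = 0.112), and both of its other probe sets were lower too. Pou5f1, the pluripotency factor that gonocytes keep, had 172 and 171 against 125 and 159 (-0.27 ± 0.20, adjusted p = 0.507). Ifitm1 (531 and 531 against 644 and 892) and Ifitm3 (1090 and 775 against 1550 and 1150) went the other way; both are interferon-inducible and are made by many somatic cells as well as by primordial germ cells.

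The 25 measured genes of undifferentiated spermatogonia, the cell state that holds the stem cells, had a median of -0.11, close to that of all genes. Separated higher were 4 (16%, against 21.4% of all genes) and lower 7 (28%, against 30.5%), also near the shares of all genes. Pou3f1, a transcription factor induced by the growth factor GDNF, passed the test at 435 and 371 on number 1 and 207 and 160 on number 2 (2.17-fold lower, -1.12 ± 0.20, adjusted p = 0.0417). Thy1, the protein used for the sort, had 329 and 265 against 168 and 141, a 1.89-fold lower level (-0.92 ± 0.20) that missed the threshold with an adjusted p of 0.07 and did not overlap between the numbers. Receptors for GDNF did not share this direction. Gfra1 had 520 and 475 against 570 and 578 (0.21 ± 0.16, adjusted p = 0.526), and Ret had 514 and 254 against 562 and 277 (0.12 ± 0.36, adjusted p = 0.886). Zbtb16, a repressor that maintains stem cells, was equal on the vehicle arrays at 701 and 699 and differed on the RA arrays at 368 and 174 (-0.53 ± 0.52, adjusted p = 0.625). Without RA 2 its difference was 0.46.

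Among 12 genes of spermatogonial differentiation the median was -0.36. Separated lower were 7 (58.3%, against 30.5% of all genes) and higher 2 (16.7%, against 21.4%). Dnmt3l, a cofactor of DNA methylation that is active in gonocytes around birth, passed the test with 296 and 267 on number 1 and 96.5 and 100 on number 2 (2.77-fold lower, -1.47 ± 0.19, adjusted p = 0.0134). Kit, the receptor of differentiating spermatogonia, stood apart from its list with 83 and 165 against 188 and 234 (0.81 ± 0.29, adjusted p = 0.186). Kit is also a receptor of mast cells, whose markers were higher on the same arrays; their part in it was not tested. Stra8, which is needed to enter meiosis and responds to RA, was lower on vehicle 2 (53.3) than on vehicle 1 (188) and higher on RA 2 (1480) than on RA 1 (783), so its mean difference of -0.41 ± 1.16 (adjusted p = 0.884) covers opposite signs.

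Mast cell markers showed the largest shift of any marker list with at least 5 measured genes. All 11 above the filter were higher on number 2, with a median of 1.25 (1.0 within vehicle, 1.46 within RA, and 1.07 for both after cyclic loess). Higher in both treatments were 10, against 27.8% of all genes. Ms4a2 passed the filter only through number 2, with 23 and 2.09 on number 1 and 74.9 and 21.4 on number 2. The test called 5 of the 11 higher, against 0.438% of all genes, and none lower. Separated were 7 (63.6% against 21.4% of all genes), and 9 passed with the treatment term against 4.62% of all genes. Their summed signal was 6124 and 4063 on number 1 and 12710 and 11570 on number 2. The labels name the sorted cells as gonocytes, and these are markers of another cell type.

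Tpsab1 encodes a mast cell tryptase and had 248 and 235 on number 1 and 967 and 1050 on number 2. It was 4.12-fold higher (2.04 ± 0.16, adjusted p = 0.00555), the smallest adjusted p of the comparison. A second tryptase, Tpsb2, had 855 and 661 against 2150 and 2510 (3.08-fold higher, adjusted p = 0.0103). The protease Cpa3, which is stored in mast cell granules, had 393 and 267 against 1070 and 949 (3.08-fold, adjusted p = 0.0134). The chymases Cma1 (1030 and 777 against 2070 and 2330, 2.44-fold, adjusted p = 0.0152) and Mcpt2 (1260 and 886 against 2670 and 2370, 2.38-fold, adjusted p = 0.025) completed the 5. Outside the list, Tph1, the enzyme that starts serotonin synthesis and is active in mast cells, had 320 and 198 against 862 and 831 (3.32-fold higher, adjusted p = 0.0134). Mcpt1 and Slc6a4 were the weakest of the list, and both depended on treatment as well: Mcpt1 had 305 and 64.5 on number 1 and 411 and 75.6 on number 2, and Slc6a4, a serotonin transporter, had 92.4 and 49.9 against 177 and 38.9.

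Macrophage and leukocyte markers had a positive mean difference in all 12 genes above the filter. Of these, 11 were higher within both treatments, against 27.8% of all genes. The median was 0.91 (0.98 within vehicle, 0.94 within RA, 0.97 after cyclic loess). Of the 12, 10 were separated (83.3%, against 21.4% of all genes) and 1 passed the test, where 0.438% of all genes were called higher. With the treatment term 10 passed, against 4.62% of all genes. The summed signal was 2192 and 1852 on number 1 and 4180 and 3720 on number 2. Tyrobp, a signalling adaptor of myeloid cells, passed the test with 172 and 137 against 394 and 327 (2.30-fold higher, 1.2 ± 0.20, adjusted p = 0.0355). Other members did not pass. Csf1r, the receptor for the macrophage growth factor CSF1, had 92.7 and 87.2 against 218 and 174 (2.11-fold higher, 1.08 ± 0.21, adjusted p = 0.0563). All 3 of its probe sets above the filter were higher. Adgre1, the macrophage surface protein F4/80, had 53 and 33.8 against 121 and 79.1 (1.12 ± 0.29, adjusted p = 0.0997). Lyz2, the lysozyme of phagocytes, had 426 and 243 against 857 and 713 (1.27, adjusted p = 0.0582). Mrc1 and C1qb, named after their values were seen, overlapped between the numbers. Mrc1 had 32.4 and 71.5 against 67.3 and 35.7, at 0.95 within vehicle and -0.91 within RA. C1qb had 63.6 and 57.4 against 115 and 60.1, at 0.81 and 0.06. The complement genes C1qa and C1qc, Cx3cr1, Cd163 and Aif1, all markers of resident macrophages, were dim and below the filter.

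**Figure D3:**
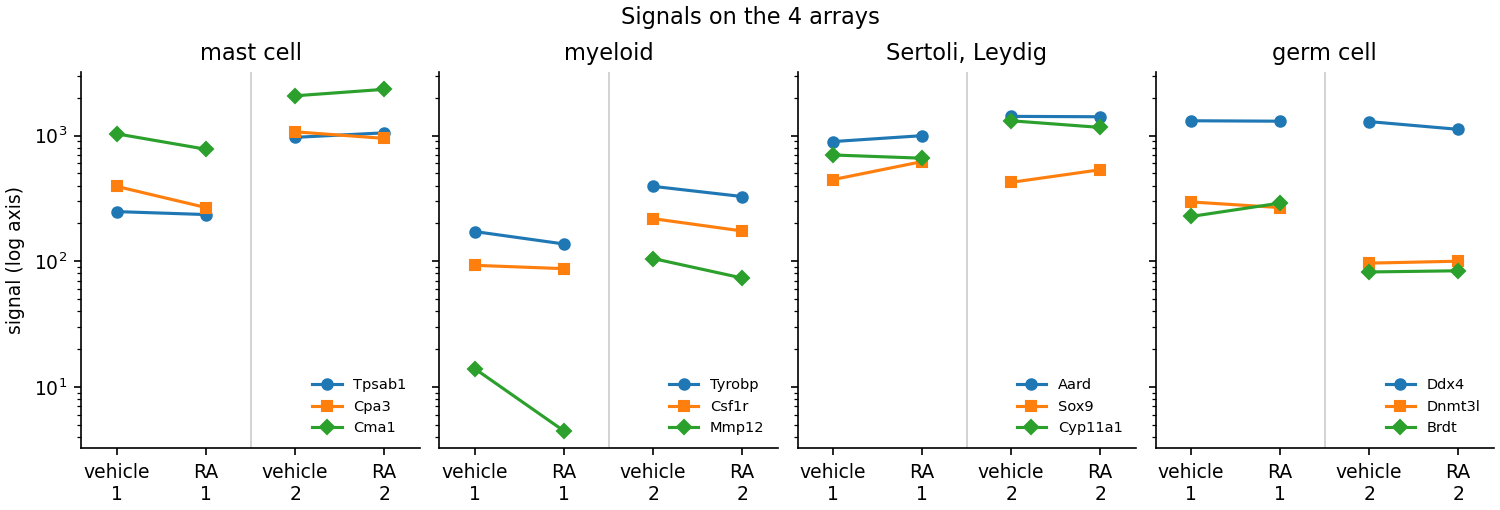
Signals of 12 genes on each of the 4 arrays, on a log axis, in panels of mast cell, myeloid, Sertoli and Leydig, and germ cell genes; a line joins the vehicle and the RA array of a number. Tpsab1, Cpa3, Cma1, Tyrobp, Csf1r, Mmp12, Aard and Cyp11a1 step up from number 1 to number 2, Dnmt3l and Brdt step down, and Sox9 and Ddx4 show little change.

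The 15 genes with the largest higher differences also included genes known from immune cells, which were on no list. For 5 of the genes called higher and 10 of those called lower, the mean of the dimmer number was below the filter level, a signal of 15.5, so they passed the filter only through the brighter number; their folds are given against that level as "at least". Mmp12, the macrophage elastase, had the largest log2 difference, with 13.9 and 4.45 on number 1 and 105 and 73.5 on number 2 (at least 4.54-fold higher, 2.80 ± 0.35, adjusted p = 0.0134). Cd74, the invariant chain of MHC class II in antigen-presenting cells, had 56.2 and 26.5 against 184 and 201 (4.49-fold), and Slpi, a protease inhibitor of epithelia and neutrophils, had 238 and 120 against 775 and 694 (4.23-fold). The fatty acid receptor Cd36 was 3.96-fold higher, and both of its other probe sets were higher as well. The neutrophil-attracting chemokine Cxcl3 was 3.53-fold higher, the haematopoietic signalling protein Hcls1 at least 2.65-fold and the granzyme Gzmc 3.19-fold. Ifi202b, an interferon-inducible gene, was 3.81-fold higher.

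Krt14, a keratin of basal epithelia that is also made by some muscle-like cells, had 24.7 and 15.1 against 131 and 92.3 (4.71-fold, adjusted p = 0.0134), and its other probe set was at 2.03. Pdgfd, a growth factor for mesenchymal cells, was 3.62-fold higher, Klhl4 was at least 2.33-fold higher and the mitotic kinesin Kif15 at least 1.91-fold higher. Tarbp2, a partner of Dicer, had 113 and 168 against 525 and 573 (3.87-fold, adjusted p = 0.0103), while its other probe set was at 0.11.

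Genes past the threshold but outside the 15 are named here after their values were seen. The calprotectin subunit S100a9 had 855 and 671 on number 1 and 1720 and 1500 on number 2 (2.12-fold higher). Clec4d, a lectin of myeloid cells, had 491 and 393 against 1100 and 964 (2.32-fold), and the complement receptor C5ar1 had 258 and 234 against 491 and 521 (2.04-fold). Il1b, the inflammatory cytokine interleukin 1 beta, had 71.2 and 56 against 157 and 201 (2.68-fold). Acod1, the enzyme that makes itaconate in activated macrophages, was 2.49-fold higher, and the scavenger receptor Marco was 2.99-fold higher. The pan-leukocyte proteins Cd52 and Cd53 were 2.12-fold and 2.00-fold higher. Pf4, a platelet chemokine that some macrophages also make, had 102 and 57.4 against 279 and 213 (3.05-fold higher, adjusted p = 0.0377), whereas the platelet genes Ppbp and Treml1 were at -1.15 and -1.36. Nqo1 and Txnrd1, both targets of the oxidative stress factor NRF2, were 2.37-fold and 2.27-fold higher, but the 2 other probe sets of Txnrd1 were at -0.07 and 0.01.

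Sertoli cell markers were higher by less. Of 31 listed genes 26 were above the filter, and 22 of these had a positive difference. Higher in both treatments were 17, against 27.8% of all genes, and lower in both were 4, against 38.8%. Separated higher were 15 (57.7% against 21.4%) and lower 1. The median was 0.39 (0.44 within vehicle, 0.29 within RA) and 0.31 after cyclic loess. None passed the test, and with the treatment term 4 were higher (15.4%, against 4.62% of all genes). The summed signal was 12220 and 12560 on number 1 and 15050 and 16330 on number 2. Ptgds, a prostaglandin synthase that is prominent in Sertoli cells, had 836 and 772 against 1170 and 1450 (1.62-fold, 0.69 ± 0.16, adjusted p = 0.0897). Aard, a testis gene of Sertoli cells, had 895 and 997 against 1420 and 1410 (1.5-fold, 0.58 ± 0.15, adjusted p = 0.0991). Transcription factors of Sertoli cells were divided. Gata4 had 118 and 133 against 191 and 169 (0.51, adjusted p = 0.208). Gata1, which mast cells also use, had 12.3 and 9.11 against 36.5 and 20.5 (1.06, adjusted p = 0.125). Both were chosen after their values were seen. Gata1 passed the filter only through number 2, since its signals on number 1 were below the level of 15.5. Sox9, which directs Sertoli cell fate, had 446 and 620 against 424 and 534 (-0.14 ± 0.20, adjusted p = 0.754), and Wt1 had 238 and 353 against 207 and 308 (-0.20 ± 0.25, adjusted p = 0.718). Amh, the hormone that defines fetal and newborn Sertoli cells, was between 1.66 and 11.9 on the arrays and below the filter.

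Leydig cell markers had a median of 0.49 (0.58 within vehicle, 0.15 within RA, 0.45 after cyclic loess) over the 12 of 21 that were above the filter. Of these, 6 were separated higher (50%, against 21.4% of all genes) and 1 lower (8.33%, against 30.5%). Higher in both treatments were 7 of the 12, against 27.8% of all genes, and lower in both was 1, against 38.8%. Cyp11a1, which makes pregnenolone from cholesterol as the start of steroid synthesis, passed the test with 700 and 660 on number 1 and 1310 and 1160 on number 2 (1.80-fold higher, 0.85 ± 0.15). Its adjusted p of 0.0471 is close to the threshold: Vamp5 at 0.0492 was the last gene inside it, and Slc15a3 and Acap1 at 0.0502 were the first outside. Star, which brings cholesterol into mitochondria, had 335 and 467 against 521 and 443 (0.28 ± 0.20, adjusted p = 0.492) and Cyp17a1, needed for androgen synthesis, had 29.3 and 34.9 against 64.9 and 36.7 (0.54 ± 0.29, adjusted p = 0.358). Vehicle 2 was the highest array for both, and for Cyp17a1 the other arrays lay close together. The adrenal marker Cyp11b1 had 14.6 and 53.4 against 73.4 and 18.3.

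Stromal and fibroblast markers were higher by a median of 0.35 over 22 genes (0.28 after cyclic loess). Separated higher were 11 (50%, against 21.4% of all genes) and lower 2 (9.09%, against 30.5%). None passed the test. Col1a1, a chain of type I collagen, had 1570 and 1510 against 2100 and 2260 (1.41-fold, 0.50 ± 0.14, adjusted p = 0.123), and Sparc, a collagen-binding matrix protein, had 2340 and 2160 against 3290 and 4140 (1.64-fold, 0.71 ± 0.16, adjusted p = 0.0721). Dcn, the proteoglycan decorin, had 548 and 706 against 748 and 856 (0.36 ± 0.18, adjusted p = 0.313). Pdgfra, a receptor of stromal progenitors, overlapped slightly, with 927 and 1320 against 1310 and 1370 (0.28 ± 0.18, adjusted p = 0.45). Thy1 itself, which fibroblasts carry too, went opposite to this list.

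Peritubular and smooth muscle markers were divided, with a median of -0.17. Separated higher were 5 of 16 (31.2%, against 21.4% of all genes) and lower 8 (50%, against 30.5%). The summed signal went opposite to the median, at 12290 and 11830 on number 1 and 12840 and 14740 on number 2. Lmod1, an actin nucleator of smooth muscle, passed the test with 145 and 159 on number 1 and 58.5 and 61.5 on number 2 (2.42-fold lower, -1.27 ± 0.21, adjusted p = 0.0344). Cnn1, a calponin, at 56.8 and 89.2 against 18.1 and 34.4, and Des, the intermediate filament desmin, at 205 and 301 against 79.9 and 173, had the same direction without passing. Acta2, smooth muscle actin, had 2060 and 2220 against 2470 and 3340 (0.42 ± 0.17, adjusted p = 0.225), but its other probe set was at -0.66 and quantile normalization gave -0.035. Myh11, smooth muscle myosin, was at -0.36 ± 0.20 (adjusted p = 0.363) with 175 and 216 against 150 and 150, and its other probe set was at 0.80.

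Endothelial markers included genes in both directions. The median of 19 genes was 0.04 and became -0.01 with equal array medians, where the median of all genes also moved, from -0.06 to -0.11. Separated higher were 8 (42.1%, against 21.4% of all genes) and lower 2 (10.5%, against 30.5%), and none passed the test. The summed signal overlapped, at 1035 and 1105 on number 1 and 1059 and 1174 on number 2. Pecam1, the adhesion protein CD31, had 50.9 and 43.1 against 32.2 and 55.3 (-0.13 ± 0.29, adjusted p = 0.846), Cdh5, the cadherin of vessel walls, had 27.2 and 22.3 against 28.9 and 42.5 (0.44 ± 0.27, adjusted p = 0.427), and Flt1, a VEGF receptor, had 152 and 155 against 86.4 and 76.5 (-0.88 ± 0.20, adjusted p = 0.0832). Eng, a coreceptor for TGF-beta, had the opposite direction at 53.8 and 57.8 against 77.6 and 86.2 (0.51 ± 0.22, adjusted p = 0.255).

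Marker lists of few measured genes gave little. The 6 genes of rete testis and duct epithelium had the lowest median of any list with at least 5 genes, at -0.70. Separated lower were 4 (66.7%, against 30.5% of all genes), and Lhx9 was separated higher. Wfdc2, a secreted protein of duct epithelia, had 358 and 307 on number 1 and 196 and 173 on number 2 (-0.83 ± 0.18, adjusted p = 0.0741), and Emx2, a transcription factor of the urogenital tract, had 253 and 231 against 150 and 118 (-0.84 ± 0.20, adjusted p = 0.0897). The T cell receptor subunits Cd3g (1.26, adjusted p = 0.0901) and Cd247 (-0.99, adjusted p = 0.1) were in opposite directions, with 3 of 5 T cell markers higher and 2 lower, and their summed signal stayed under 310 on every array. Of 7 mesothelial markers 4 were separated higher (57.1%, against 21.4% of all genes) and 1 lower (14.3%, against 30.5%). Their median was 0.46, but the summed signal of the list was lower on number 2, at 2387 and 2372 against 2124 and 2309. The smallest p-values were those of Cldn15 (1.07 ± 0.26, adjusted p = 0.0919) and Gpm6a (0.67 ± 0.27, adjusted p = 0.224). Cldn15 passed the filter only through number 2, with 11.5 and 13.6 on number 1 and 29.1 and 34.5 on number 2. Schwann cell and neural markers had a median of -0.08 over 6 genes with none separated; Gap43 was at -0.50 (adjusted p = 0.412) and Nefl at -0.51 (adjusted p = 0.451). Of 7 erythroid markers only Alas2 was above the filter, at -0.63 (adjusted p = 0.225).

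**Figure D4:**
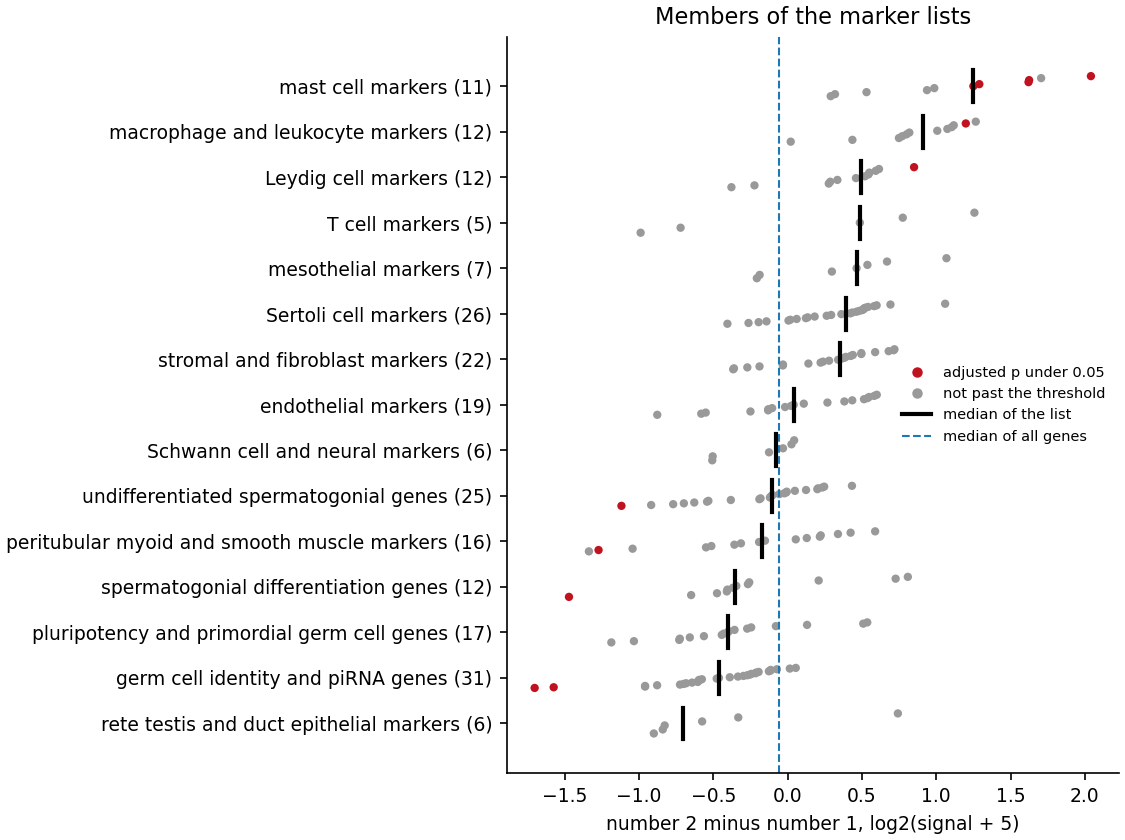
Each point is 1 gene of a marker list, placed by its log2 difference of number 2 minus number 1; red points have an adjusted p under 0.05, black bars are list medians and the dashed line is the median of all 13011 genes, -0.06. Lists with at least 5 genes above the filter are shown, from rete testis and germ cell genes at the bottom (medians -0.70 and -0.46) to macrophage and mast cell markers at the top (0.91 and 1.25).

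The 38 genes past the threshold on the lower side were dimmer than those on the higher side, with a median signal of 89.7 against 258 for the genes called higher and 161 for all genes. The germ cell lists held 4 of them, where 0.292% of all genes were called lower. Brdt and Dppa3 were among 31 germ cell identity genes, Pou3f1 among 25 undifferentiated spermatogonial genes and Dnmt3l among 12 differentiation genes. Only 4 of the 38 had another probe set of their own above the filter, and 3 of those 5 probe sets had the same sign. For the genes called higher, 20 of 21 (95.2%) did. Sequences of the probes were not used here.

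B3galt6, a galactosyltransferase that builds the linker of proteoglycans, had the largest lower difference with 130 and 121 on number 1 and 12.5 and 15.2 on number 2 (at least 6.37-fold lower, -2.79 ± 0.24, adjusted p = 0.00584). Tmem87a, a Golgi membrane protein, had 306 and 303 against 54.8 and 29.5 (6.82-fold lower, adjusted p = 0.0103), and Rnf112, a ubiquitin ligase of the nervous system, was at least 3.28-fold lower. The fast skeletal myosins Myh2 (70.7 and 89.4 against 8.03 and 14.1, at least 4.13-fold lower) and Myh1 (43.1 and 49.1 against 9.91 and 7.62, at least 2.49-fold lower) both passed the test. So did the homeobox genes Hoxa10 (152 and 120 against 22 and 25.6, 4.88-fold lower), Barhl2 (4.92-fold) and Hoxd13 (at least 2.27-fold), and the zinc finger gene Zic1 (80.7 and 122 against 18.1 and 15.5, 4.80-fold). The rest of the 15 were the anchoring protein gene Akap6 (at least 2.33-fold), Fam183b (3.96-fold), the fatty acid racemase gene Amacr (3.89-fold), Fam160a1 (3.36-fold), Phyhip (3.30-fold) and the FGF-binding protein gene Fgfbp1 (3.29-fold). Tnfsf11, the cytokine RANKL, was named after its value was seen; it had 146 and 118 against 46.5 and 37.7 (2.90-fold lower, adjusted p = 0.0286).

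Niche ligands, the signals that somatic cells send to germ cells, had a median of 0.06 over 21 genes, and none passed the test. Kitl, the ligand of Kit, had 528 and 563 on number 1 and 689 and 623 on number 2, and Gdnf, the ligand of Gfra1 and Ret, overlapped at 39.8 and 44.4 against 35.4 and 54.6. Bmp4, a ligand that acts on germ cells, had 174 and 194 against 98.9 and 81.5 (-0.99 ± 0.21, adjusted p = 0.0674), and Angpt2, a vessel growth factor, had 38 and 34.8 against 63.5 and 108 (1.09 ± 0.28, adjusted p = 0.0994). The 21 receptors had a median of -0.04. Amhr2, the receptor for AMH, had 35.6 and 53.1 against 83.8 and 70.7 (0.76 ± 0.26, adjusted p = 0.164), and Bmpr1b, a BMP receptor, had 65.8 and 64.1 against 47.1 and 27 (-0.77 ± 0.28, adjusted p = 0.184), with its other probe set at 0.24. Matrix and basement membrane genes had a median of 0.00 over 31 genes, with Lamc1, a laminin chain, at 0.81 (adjusted p = 0.0716) and Tnc, tenascin C, at -0.90 (adjusted p = 0.128). The other probe set of Lamc1 was at 0.004 and that of Tnc at -1.47.

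Of 20 interferon response genes 8 were separated higher (40%, against 21.4% of all genes) and none lower. None passed the test, and 7 were higher with the treatment term (35%, against 4.62% of all genes). B2m, the light chain of MHC class I, had 1980 and 1860 on number 1 and 2880 and 3350 on number 2 (1.61-fold, 0.69 ± 0.15, adjusted p = 0.0674), and the heavy chain gene H2-K1 had 458 and 522 against 707 and 796. Irf7, the factor that amplifies interferon responses, had 18.9 and 10.1 against 66 and 38.6 (1.55 ± 0.33, adjusted p = 0.0674). Its mean on number 1 was below the filter level of 15.5, so it passed the filter only through number 2. Mx1, Oasl2 and Ddx58, which interferon also induces, were at -0.07, -0.14 and -0.09.

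Ribosomal protein genes were separated higher in 16 of 18 (88.9%, against 21.4% of all genes). Their median was 0.47, which was 0.19 after cyclic loess and -0.01 after quantile normalization. They are among the brightest genes on the arrays, and the brightest group of genes had a median difference of 0.20. The part of brightness in their shift was not tested. Rpl4 had 3020 and 2940 against 3760 and 5360 (0.59 ± 0.18, adjusted p = 0.13) and Rps24 had 2840 and 2810 against 3590 and 5000 (0.58 ± 0.17, adjusted p = 0.128), with 1 of its 4 other probe sets at -0.22. Oxidative phosphorylation genes had 14 of 24 separated higher (58.3%, against 21.4% of all genes) and a median of 0.17, or 0.07 after cyclic loess. Atp5b, an ATP synthase subunit, was at 0.40 (adjusted p = 0.223). Uqcrb, a subunit of complex III, was at 0.33 (adjusted p = 0.237) and at -0.13 after quantile normalization. Imprinted growth genes had a median of 0.39 over 13 genes, or 0.30 after cyclic loess. Grb10 was at 0.51 (adjusted p = 0.133) although its 2 other probe sets were below 0. Peg3 was at 0.46 (adjusted p = 0.14), with its 2 other probe sets at -0.06 and 0.16.

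Genes of cell division differed little between the numbers, with a median of 0.02 over 32 genes. Separated higher were 3 (9.38%, against 21.4% of all genes) and lower 6 (18.8%, against 30.5%). Mki67, the proliferation marker, was at 0.38 ± 0.17 (adjusted p = 0.261) and Ccne2, a cyclin of the G1 to S transition, at -0.53 ± 0.20 (adjusted p = 0.206). Cell cycle inhibitors had a median of -0.07, with Cdkn1a at 0.40 (adjusted p = 0.235) and Cdkn1c at -0.51 (adjusted p = 0.246). Apoptosis and p53 target genes had a median of 0.17. Of 19 genes, 9 were separated higher (47.4%, against 21.4% of all genes) and 4 lower (21.1%, against 30.5%). Gadd45a, induced by DNA damage, had 468 and 491 against 725 and 913 (0.76 ± 0.17, adjusted p = 0.0782). For immediate early genes and heat shock genes the median was 0.00, or -0.13 after cyclic loess, with Ier3 at 0.72 (adjusted p = 0.0733) and Hspa8 at 0.57 (adjusted p = 0.128). The median was -0.13 for genes that respond to unfolded proteins or amino acid shortage, where Slc7a11 was at 0.95 (adjusted p = 0.0928) and Ddit3 at -0.73 (adjusted p = 0.141). It was 0.11 for hypoxia and glycolysis genes, with Pgk1 at 0.52 (adjusted p = 0.124) and Aldoa at 0.51 (adjusted p = 0.133), and 0.10 for cholesterol synthesis genes, with Hmgcs1 at 0.52 (adjusted p = 0.139) and Ebp at 0.51 (adjusted p = 0.23).

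Retinoic acid target genes were measured because the treatment acts on them. Their median of 0.01 over 14 genes joined opposite values, -0.52 within vehicle and 0.47 within RA. On the arrays numbered 1 the ratio of RA to vehicle was 4.08-fold for Stra8, 4.71-fold for the RA-degrading enzyme Cyp26a1, 5.04-fold for the RA receptor Rarb and 2.89-fold for Lrat, which stores retinol as an ester. On those numbered 2 it was 25.4-fold, 15.2-fold, 8.26-fold and 12.8-fold. The ratio was larger on number 2 for 13 of the 14 genes, against 52.8% of all 13011 genes, and Btg2 was the exception. Each ratio rests on 1 array against 1, and the difference between the ratios was not tested. Meis2 (-0.47, adjusted p = 0.216) and Crabp2 (-0.57, adjusted p = 0.285), an RA carrier protein, had the smallest p-values for the number itself. The 3 other probe sets of Meis2 ranged from -0.73 to 0.77.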

How the data were processed

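Affymetrix mouse expression arrays were hybridised with cDNA made from 75 ng of RNA (NuGEN Ovation amplification) and quantified in GCOS 1.2, per the labels. The values the authors deposited are linear intensities, 1 for each probe set on an array; probe summary and scaling are not given in the sources used here. Of 45101 probe sets, 64 controls were left out. On log2(intensity + 5), probe sets with a mean at or above the 40th percentile were kept (27022). limma 3.58.1 in R 4.3.3 (lmFit, eBayes with intensity trend; 2 residual degrees of freedom, 7.82 from the prior) compared the numbers without a treatment term, two-sided, with Benjamini-Hochberg adjustment over these. The fit was tested on simulated data.

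Each gene was read from its brightest probe set naming it alone (platform annotation, symbols updated through Entrez IDs for 34741 of 34945 such probe sets; 932 named several genes and 9160 none). Of 18193 genes, 13011 were above the filter. Other probe sets of a gene were counted only where they too were above it. List members without a probe set, Insl3 among them, are not analysed here. No genome coordinates were used.

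The comparison, 32 gene lists and naming rule were chosen with earlier results of these data known. The rule names 25 fixed genes, the 15 largest differences each way past the threshold and alike in both treatments, and per list up to 4 members past it or the 2 with the smallest p. As a check of pairing within treatment, the RA minus vehicle differences of the 2 numbers correlated at 0.255 across genes; arrays of 1 treatment are paired by that label. Alternatives covered scaling, pseudocount, filter, variance trend, treatment term, probe set choice, a minimum fold and leaving out each array. Figures: matplotlib 3.10.9.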

Additional observations from a re-analysis of the deposited data

Results flagged for a closer look

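Some values of number 2 minus number 1 had opposite signs within vehicle and within RA. Each rests on 1 array against 1 in each treatment, and the difference between the treatments was not tested. Stra8 was at -1.73 (log2) within vehicle and at 0.91 within RA. Star, the cholesterol carrier of Leydig cells, was at 0.63 and -0.075, and Pecam1 of endothelial cells was at -0.59 and 0.33. The list medians with opposite signs, vehicle first, were -0.52 and 0.47 for retinoic acid target genes, -0.18 and 0.035 for undifferentiated spermatogonial genes, -0.32 and 0.12 for Schwann cell and neural markers, 0.031 and -0.11 for immediate early and heat shock genes, -0.041 and 0.21 for hypoxia and glycolysis genes, -0.054 and 0.13 for genes of DNA replication and cell division, and 0.14 and -0.075 for cholesterol synthesis genes. For comparison, 33.4% of all 13011 genes had opposite signs.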

How the results depend on the processing

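The count of genes called higher or lower depended on the processing, while the 95 genes kept their sign under each alternative in which they were tested, except Kat7 when its probe sets were averaged. In limma the 57 higher and 38 lower became 104 and 134 with equal array medians, 9 and 16 without the intensity trend, 37 and 21 with the filter at the 60th percentile, and 1 and 1 against a minimum fold of 1.5. Averaging a gene's probe sets left 23 lower. Without a filter 0 and 0 were called, with 7116 probe sets at an unadjusted p under 0.05 and a smallest adjusted p of 0.0559. With arrays paired within treatment (replicate block), 601 higher and 882 lower were called, among them all 95; this fit has 1 residual degree of freedom and its prior was infinite, so every variance was set to the trend. Leaving out 1 array gave 60 to 480 higher and 43 to 299 lower. The counts were 261 and 255 without vehicle 1, 480 and 299 without vehicle 2, 84 and 43 without RA 2, and 60 and 48 without RA 1; the lone array is then assumed to vary like the other number. Genes at least 2-fold in both treatments, 102 higher and 76 lower, became 42 and 32 with a pseudocount of 20, 49 and 33 with the stricter filter, and 60 and 26 with probe sets averaged. The causes were not tested beyond the smaller number of genes or samples in some of these.

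Signs turned for genes that did not pass the test. Acta2 was at -0.035 after quantile normalization and at -0.66 without probe sets that can match several transcripts, Uqcrb at -0.13 after quantile normalization, Rps24 at -0.22 without such probe sets, and Sox9 at 0.094 and Myh11 at 0.22 with probe sets averaged. Leaving out 1 array gave ranges of -0.27 to 0.04 for Dazl (0.04 without RA 2), -1.52 to 0.46 for Zbtb16 (0.46 without RA 2), -0.38 to 0.63 for Ret (-0.38 without vehicle 2 or RA 1), -2.74 to 1.93 for Stra8 (1.93 without vehicle 2, 0.61 without RA 1), -0.38 to 0.094 for Sox9 (0.022 without vehicle 2, 0.094 without RA 1), -0.48 to 0.086 for Wt1 (without vehicle 2 or RA 1) and -0.48 to 0.22 for Pecam1 (without vehicle 2). Signals near the background limit what dim genes can show.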

Other observations

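Some interferon-induced genes were high on 1 array alone, and are named after their values were seen. Ifit1 had signals of 30.2 on vehicle 1, 29.1 on RA 1 and 30.4 on RA 2 but 110 on vehicle 2. Ifit3 had 23.8, 33.0 and 31.4 against 107 on vehicle 2, and Usp18, an interferon-induced protease, had 56.0, 40.3 and 52.1 against 138. Their differences by number (0.88, 0.95 and 0.78) therefore come from vehicle 2.

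A few genes combined both axes of the study. Saa3, an acute phase gene of activated macrophages, had 487 on vehicle 1, 205 on RA 1, 1570 on vehicle 2 and 630 on RA 2, so that within each treatment number 2 was the higher and within each number vehicle was the higher. Stfa3, a protease inhibitor of myeloid cells, had 201, 52.0, 493 and 208 in the same order. Mcpt4, a mast cell chymase, had 757, 397, 1490 and 749. None of these passed the test for the number.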
